A study of Mus musculus with 6 samples.

Results

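The tolloid group of genes was taken by symbol from a table of normalized counts in embryonic mouse hearts: the tolloid proteases Tll1, Tll2 and Bmp1, the procollagen C-proteinase enhancers Pcolce and Pcolce2, and the chordin-type BMP binders Chrd, Chrdl1 and Twsg1. Of these 8, 7 were among the 15330 rows of the table. Tll2 had no row and was not analysed here. Tll1 was chosen by its log2 fold change between the groups in an earlier look at these same libraries, and the others were added for their roles. The difference in Tll1 is therefore given as a description without a test, and the values of the others are given as their place in a fit across all genes.

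RNA came from hearts dissected at embryonic day 9.5, a stage of cushion and trabecula formation. Deletion hearts (H2-URI d/d) lacked, on both chromosomes, 373 kb of sequence upstream of Hand2, removed with CRISPR-Cas9. Hand2 codes for a bHLH factor that the developing heart needs. The other group was wild-type. The deletion and the wild-type group had 3 libraries each, of which 2 came from females and 1 from a male, and all carry the label batch 1. Since the labels do not say whether libraries came from separate or pooled hearts, p-values here cover only the library-to-library spread, part of which may be technical. The comparison asks how transcript levels in the heart differ without the interval.

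Reads recovered from the normalized counts summed to 25583210 to 32043595 per library over the 15330 rows, which need not be all reads sequenced. Hand2 itself stood at 1025, 1158 and 1163 normalized counts in deletion hearts, against 3911, 3789 and 4407 in wild-type hearts, so it was low in each library labelled as deletion. Every direction below rests on giving each column to the sample whose title carries its code. The file record puts 4 of the 6 columns in the other group. Of 10 marker lists, the summed levels of 5 overlapped between groups, cardiomyocyte, erythroid, endocardial, pharyngeal and liver genes among them. The sums were higher in deletion hearts for epicardial, macrophage and neural markers, and lower for cushion mesenchyme and neural crest markers. In each of these 5 lists the groups overlapped once the most abundant gene was left out (Krt19, Mrc1, Nes, Col3a1 and Ets1), a check chosen after seeing the data. Nes made up 96.8% of the neural sum in deletion hearts and 96.6% in wild-type hearts. The cardiomyocyte list summed to 788340 to 868870 normalized counts in deletion hearts and 748550 to 876670 in wild-type hearts. Of 8 neural crest markers 4 were measured, and Sox10, Tfap2b and Foxd3 had no row, and of 8 macrophage markers C1qa, C1qb, Fcgr1, Cx3cr1 and Adgre1 had none. In such bulk samples, fewer cells of a type and less RNA per cell cannot be told apart.

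Tolloid proteases are secreted zinc metalloproteases of the astacin family. They cut chordin, which otherwise holds BMP ligands away from their receptors, and they remove the C-terminal propeptides of fibrillar procollagens so that collagen fibrils can form. In the mouse embryo Tll1 is known from precardiac tissue and endocardium, and loss of Tll1 leaves the ventricular septum incomplete and the heart misplaced. Bmp1 is the broadly expressed member of the family, and its gene gives both the short BMP1 protein and the longer mammalian tolloid by alternative splicing.

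The stretch before the start of Tll1 is shown because Tll1 is the member with the large difference. Proteins of the Hand2 type bind E-boxes (CANNTG) together with a partner, so E-boxes are in capitals. The sequence is RefSeq's for GRCm38.p6, chr8:64206009-64206258 on the minus strand, and ends at the base before the annotated start. The authors' reads were placed on GRCm39.

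Tll1: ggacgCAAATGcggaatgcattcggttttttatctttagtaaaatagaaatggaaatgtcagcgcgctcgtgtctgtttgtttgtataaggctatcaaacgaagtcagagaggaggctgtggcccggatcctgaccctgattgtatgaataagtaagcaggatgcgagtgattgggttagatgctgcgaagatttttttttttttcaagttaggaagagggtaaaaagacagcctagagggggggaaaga

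These 250 bases held 1 E-box, CAAATG, near the far end. The motif reads as CANNTG on either strand. It occurred at least once in the same window of 66.0% of 27025 genes with a promoter in that table, so its presence is common. Promoters were listed for 6 of the 8 genes and not for Bmp1 and Chrdl1. The windows of Pcolce, Twsg1 and Pcolce2 held 6, 3 and 1 E-boxes, and those of Chrd and Tll2 held 0. A match in these letters is a description and shows neither binding nor its absence.

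Tll1 was measured at 601, 609 and 521 normalized counts in deletion hearts, against 177, 184 and 174 in wild-type hearts. The lowest deletion library was far above the highest wild-type library, and the wild-type libraries lay close together. The means were 577 ± 48.9 in deletion hearts and 178 ± 5.26 in wild-type hearts (SD, n = 3 each), a ratio of 3.23. On the log2(normalized count + 1) scale the difference was 1.68 (SE 0.10). These values rest on 482 to 656 reads per deletion library and 156 to 207 per wild-type library. The Tll1 difference ranked 17th from the highest among all genes, a rank that belongs to the way it was chosen. In replicate 3 of each group, where column code and file record name the same sample, Tll1 stood at 521 in the deletion library and at 174 in the wild-type library. Leaving out each library in turn gave log2 fold changes of 1.64 to 1.76.

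Bmp1 stood at 801, 792 and 735 normalized counts in deletion hearts, against 810, 880 and 751 in wild-type hearts. The groups overlapped in part, with wild-type replicates 1 and 2 above each deletion library. The log2 fold change of Bmp1 was −0.066 (SE 0.084, adjusted p = 0.691, limma), with means of 776 ± 35.6 in deletion hearts and 814 ± 64.3 in wild-type hearts (SD, n = 3 each). The counts are per gene, so the short and the long Bmp1 forms were not separated.

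**Figure D1:**
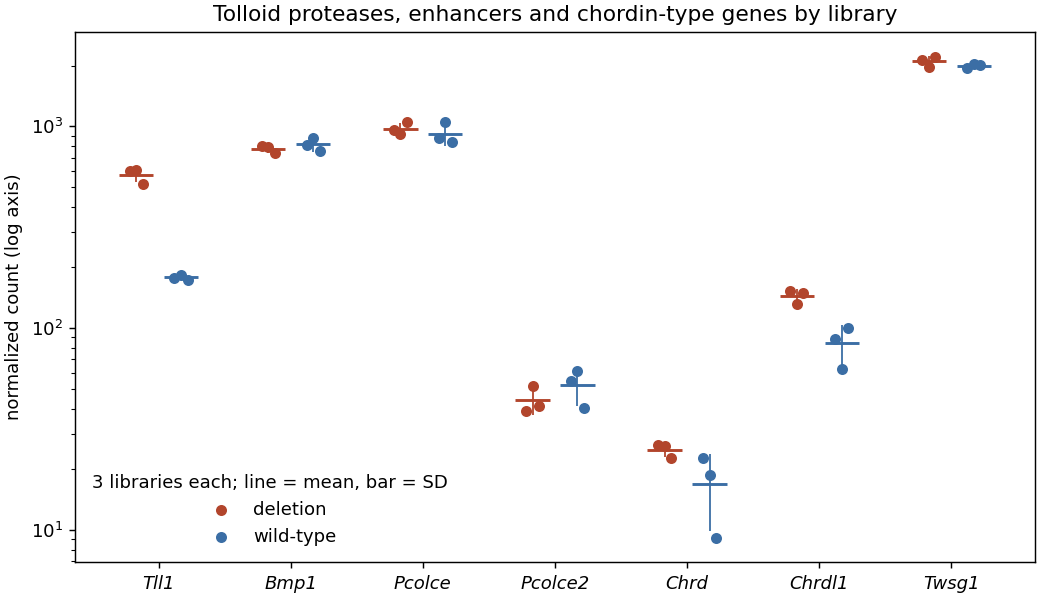
Normalized count (log axis) of the 7 measured genes in each of 3 deletion (red) and 3 wild-type (blue) libraries, with the mean and SD as lines. Tll1 and Chrdl1 are the genes whose groups are apart; Tll1 spans 521 to 609 in deletion hearts and 174 to 184 in wild-type hearts.

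Relative to each other, the proteases had a different make-up in the 2 groups. Per kilobase of the longest annotated transcript, Tll1 reached 121 ± 10.2 in deletion hearts and 37.4 ± 1.10 in wild-type hearts, and Bmp1 145 ± 6.63 in deletion hearts and 152 ± 12.0 in wild-type hearts (normalized counts per kilobase, SD, n = 3 each). In each deletion library Tll1 was thus close below Bmp1, while in each wild-type library it lay well below. Tll1 made up 45.8%, 46.4% and 44.3% of the summed Tll1 and Bmp1 level per kilobase in deletion hearts, against 19.7%, 19.1% and 20.7% in wild-type hearts. Without the correction for length the shares averaged 42.6% ± 1.04 in deletion hearts and 18.0% ± 0.75 in wild-type hearts (SD, n = 3 each). The sum of both genes was 1402, 1401 and 1256 normalized counts in deletion hearts, against 988, 1064 and 925 in wild-type hearts. Since Tll1 was chosen for its difference, these shares are a description too.

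**Figure D2:**
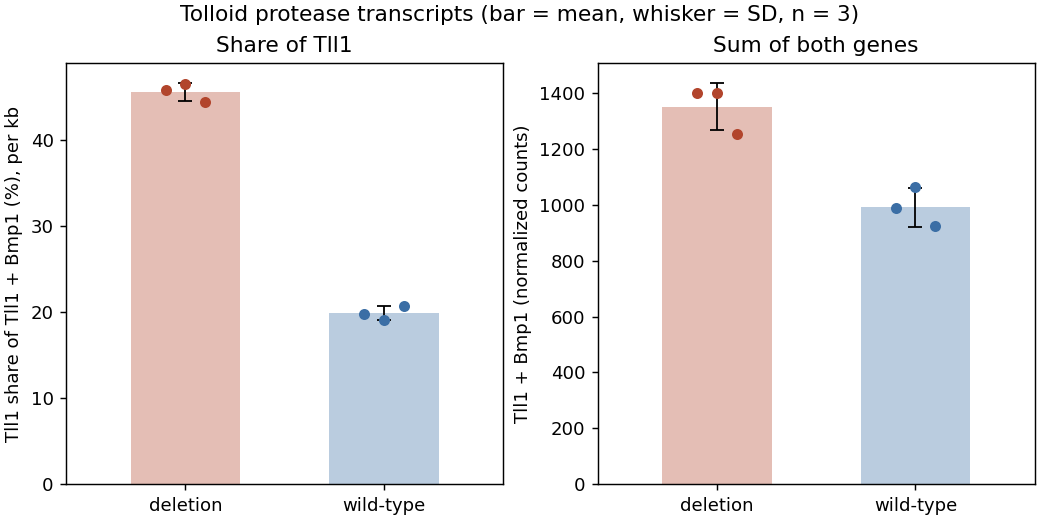
Left, Tll1 as a percentage of Tll1 plus Bmp1 per kilobase of transcript; right, the sum of both genes in normalized counts; bars are means, whiskers SD and points the 3 deletion and 3 wild-type libraries. Tll1 makes up 44.3% to 46.4% in deletion hearts and 19.1% to 20.7% in wild-type hearts.

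Pcolce and Pcolce2 encode glycoproteins that bind the procollagen C-propeptide and speed its removal by tolloid proteases without acting on chordin. Pcolce stood at 954, 919 and 1049 normalized counts in deletion hearts, against 871, 1049 and 834 in wild-type hearts, so the groups overlapped. For Pcolce the log2 fold change came to 0.091 (SE 0.099, adjusted p = 0.640, limma). Pcolce2 was a minor transcript at 39.1, 52.0 and 41.0 in deletion hearts, against 54.5, 61.4 and 40.3 in wild-type hearts. The log2 fold change of Pcolce2 was −0.23 (SE 0.23, adjusted p = 0.622, limma), and at 37 to 69 reads per library its value was loose. Pcolce provided 95.6% ± 0.87 of the summed normalized counts of both enhancers in deletion hearts and 94.7% ± 0.66 in wild-type hearts (SD, n = 3 each).

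Chrdl1, which encodes chordin-like 1, a secreted binder of BMP4 and related ligands, stood at 153, 132 and 149 normalized counts in deletion hearts, against 88.5, 63.2 and 101 in wild-type hearts. Each deletion library was above each wild-type library. The means were 145 ± 11.3 in deletion hearts and 84.1 ± 19.1 in wild-type hearts (SD, n = 3 each), with a log2 fold change of 0.80 (SE 0.19). Chrdl1 did not pass the threshold of 0.05 (adjusted p = 0.0559, limma; unadjusted p = 0.00204). It passed in DESeq2 (adjusted p = 0.0122) and after rescaling to equal totals without haemoglobin (adjusted p = 0.0392, limma), and in no other alternative. An exact two-sided permutation test of 3 against 3 libraries cannot give a p below 0.1.

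Chrd, the gene of chordin itself and the classic tolloid substrate, was close to the bottom of the table, with only 1.81% of genes at a lower mean level. Its normalized counts were 26.4, 26 and 22.7 in deletion hearts, against 22.7, 18.7 and 9.15 in wild-type hearts. The lowest deletion library matched the highest wild-type library. The log2 fold change of 0.63 (SE 0.36, adjusted p = 0.350, limma) rests on 21 to 28 reads in deletion libraries and 10 to 21 in wild-type libraries, and was 0.27 without wild-type replicate 3. No difference in Chrd was called, and at so few reads its value was loose.

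Twsg1 encodes twisted gastrulation, which joins chordin and BMP in one complex and makes chordin easier to cut. It was the most abundant of the 7 genes, also per kilobase, and varied the least within wild-type hearts. Its normalized counts were 2136, 1969 and 2202 in deletion hearts, against 1956, 2027 and 2019 in wild-type hearts, with overlap. For Twsg1 the log2 fold change came to 0.070 (SE 0.065, adjusted p = 0.575, limma).

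Per kilobase, the order of levels in deletion hearts was Twsg1, Pcolce, Bmp1, Tll1, Chrdl1, Pcolce2 and Chrd, and it was the same in wild-type hearts. The means per kilobase ran from 515 ± 29.4 for Twsg1 to 5.68 ± 0.46 for Chrd in deletion hearts and from 490 ± 9.58 to 3.82 ± 1.58 in wild-type hearts (SD, n = 3 each). Within a group, the libraries' values of neighbours in this order did not overlap. Bmp1 and Tll1 in deletion hearts came close, at 137 to 149 for Bmp1 and 109 to 128 for Tll1. The longest transcript need not be the one expressed, so the order between close genes depends on that choice.

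Among the 7 genes, 1 was called higher, Tll1, and 0 were called lower. Over all genes, 3.05% were called in limma at an adjusted p under 0.05, with 1.55% higher and 1.5% lower. The one member called is the one chosen for its difference, so nothing is read from that count. The groups did not overlap for 2 of the 7, Tll1 and Chrdl1, and for 27.4% of all genes (12.9% with deletion higher, 14.5% with deletion lower), so the members' share is near the background. The median log2 fold change was 0.091 over the 7 genes and −0.0073 over all genes.

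Endocardial markers were set beside Tll1 because endocardium is a known site of its transcripts. The 8 endocardium and endothelium markers summed to 22638 to 23424 normalized counts in deletion hearts and 21941 to 23423 in wild-type hearts. Of these 8, Kdr, the main VEGF receptor, rose (log2 fold change 0.33, adjusted p = 0.0317, limma) and Tek, the angiopoietin receptor, fell (−0.35, adjusted p = 0.0178, limma). Emcn was lower (−0.39, adjusted p = 0.0505, limma) and Npr3 higher (0.11, adjusted p = 0.364, limma), both uncalled with groups apart. For Pecam1, Cdh5, Tie1 and Nfatc1 the groups overlapped. Per 1000 normalized counts of the list, Tll1 stood at 25.6, 26.4 and 23.0 in deletion hearts, against 7.60, 8.39 and 7.42 in wild-type hearts. In this ratio each deletion library was above each wild-type library. Tll1 was chosen for its difference and the marker sums were similar in all libraries. The ratio therefore restates that difference and is a description.

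Tll1 lies on the chromosome that carries Hand2 and the deleted interval. Of 31 genes annotated within 1 Mb of Tll1, 6 were measured, and 1 of them, Cpe, the next measured gene on one side, rose. Cpe, which encodes the prohormone-processing carboxypeptidase E, stood at 1024, 1072 and 1082 normalized counts in deletion hearts, against 658, 652 and 749 in wild-type hearts. The groups were well apart. The log2 fold change of Cpe was 0.63 (SE 0.08, adjusted p = 0.00447, limma), and it passed with each library left out and in every alternative that kept the groups. The other measured neighbours were Spock3 at −0.63 (SE 0.34), Msmo1 at 0.060 (SE 0.085), Klhl2 at 0.069 (SE 0.11), Tmem192 at −0.034 (SE 0.13) and Apela at −0.33 (SE 0.46) on the log2 scale, none past the threshold. Within 3 Mb, 15 genes were measured and Cpe was again the only one called, against 3.05% called over all genes. Tma16, in that wider window, was uncalled, with each deletion library below each wild-type library (log2 fold change −0.32, adjusted p = 0.0571, limma). An effect of sequence linked to the edited chromosome cannot be told apart from that of the deletion here.

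**Figure D3:**
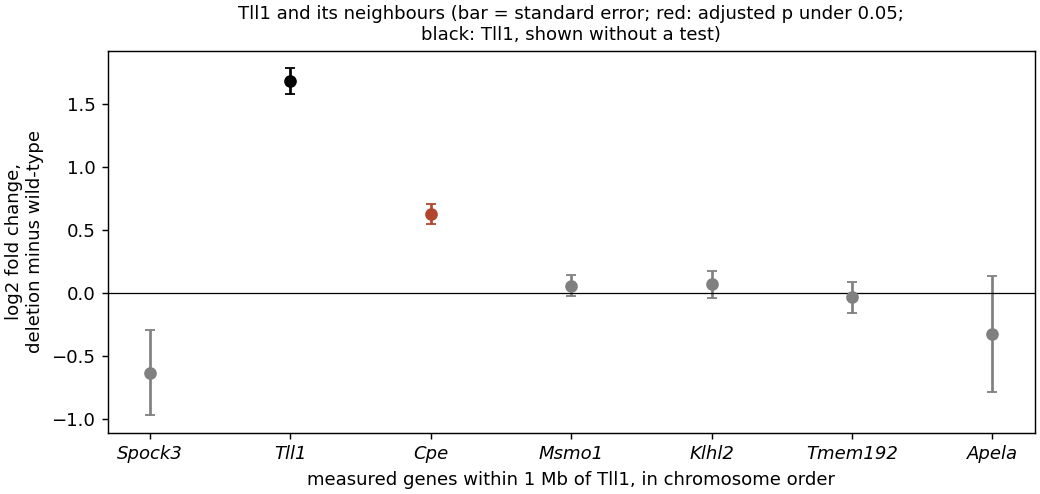
Log2 fold change, deletion minus wild-type, with its standard error, for Tll1 and the 6 measured genes within 1 Mb, in chromosome order. Tll1 (1.68) and Cpe (0.63) stand above 0, and the other genes lie within 2 standard errors of it.

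Over the 6 libraries, the 5 genes whose log2 levels followed Tll1 most closely were Clec14a, Sost, Pcdhgb4, Zfhx2 and Gys1, with Pearson r from 0.994 to 0.998. All 5 were higher in deletion hearts, by log2 fold changes of 0.31 for Gys1, the glycogen synthase of muscle, to 1.56 for Sost, a secreted Wnt and BMP pathway antagonist. Clec14a, an endothelial lectin-type receptor, had a log2 fold change of 1.16. Such r values over 6 libraries in 2 groups mostly restate the difference between the groups. The 5 genes most like Bmp1, with r from 0.968 to 0.986, were Mterf2, Nufip1, Plac8, Cars2 and Tatdn2, with log2 fold changes of −0.15 to −0.040.

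The other genes of the pathway were taken from lists by role. Together they held 88 measured genes, of which 7 rose and 8 fell (17%, against 3.05% of all genes) and 32 had groups that did not overlap (36.4%, against 27.4% of all genes). The lists were chosen with results of these libraries known, so these shares are a description. The median log2 fold change was 0.055. Of 7 measured BMP ligand genes, 2 rose and 0 fell in limma (median −0.090). The uncalled ligands ranged from −1.84 to 0.11. DESeq2, with 1123 calls over all genes, called 2 ligands higher and 3 lower. Bmp7, a ligand of myocardium, stood at 6461, 6313 and 6311 normalized counts in deletion hearts, against 5414, 4847 and 5262 in wild-type hearts (log2 fold change 0.30, SE 0.06, adjusted p = 0.0384, limma). Bmp6, a related ligand, stood at 470, 554 and 465 in deletion hearts, against 383, 343 and 304 in wild-type hearts (0.53, SE 0.12, adjusted p = 0.0418, limma). For both Bmp7 and Bmp6, the deletion libraries were all above the wild-type libraries. Bmp7 and Bmp6 lost their call without any 1 deletion library or without wild-type replicate 3 (adjusted p of 0.104 to 0.164 for Bmp7 and 0.103 to 0.185 for Bmp6, limma), and Bmp7 also once a length and GC trend had been taken out (adjusted p = 0.109, limma) or with sex as a term (0.0654).

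Of 16 genes of BMP receptors and signal transducers, 0 rose and 1 fell (median 0.041). Eng, the endothelial co-receptor for BMP9 and TGF-beta, stood at 2749, 2664 and 2502 normalized counts in deletion hearts, against 3620, 3368 and 3636 in wild-type hearts (log2 fold change −0.42, SE 0.06, adjusted p = 0.0108, limma). The call of Eng ended without deletion replicate 2 or 3 (adjusted p of 0.0589 to 0.0639, limma). Of 12 other secreted BMP antagonists and binders, 0 were called in limma, edgeR or DESeq2, with 2 at an unadjusted p under 0.05 in limma (median 0.12). These were Fst, the follistatin gene, at 95.5 ± 17.7 in deletion hearts and 56.4 ± 11.9 in wild-type hearts, and Kcp, a kielin/chordin-like protein gene, at 367 ± 22.3 in deletion hearts and 301 ± 45.7 in wild-type hearts (normalized counts, SD, n = 3 each; adjusted p = 0.0962 and 0.208, limma).

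Of 17 BMP response genes, 1 rose and 1 fell (median 0.062). Smad7, an inhibitory Smad, stood at 1319, 1192 and 1183 normalized counts in deletion hearts, against 813, 973 and 922 in wild-type hearts (log2 fold change 0.45, SE 0.09, adjusted p = 0.0268, limma). Msx1, a homeobox factor of cushion mesenchyme, stood at 355, 319 and 294 in deletion hearts, against 548, 458 and 448 in wild-type hearts (−0.58, SE 0.11, adjusted p = 0.0292, limma). Neither pair of groups overlapped. Both calls ended without any 1 deletion library or without wild-type replicate 3 (adjusted p of 0.0777 to 0.123 for Smad7 and 0.0610 to 0.126 for Msx1, limma), and that of Smad7 once that trend had been taken out (adjusted p = 0.0980, limma).

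Among 9 fibrillar procollagen genes, the second kind of tolloid substrate, 0 rose and 1 fell (median 0.025). Col3a1 stood at 1443, 1748 and 2061 normalized counts in deletion hearts, against 3931, 4668 and 3936 in wild-type hearts (log2 fold change −1.26, SE 0.12, adjusted p = 0.00126, limma). The highest deletion library held far less Col3a1 than the lowest wild-type library. Of 16 other genes whose proteins are reported substrates of Bmp1-type proteases, 2 rose and 2 fell (median 0.14). Igfbp3, an insulin-like growth factor binding protein, stood at 1469, 1610 and 1751 in deletion hearts, against 791, 736 and 655 in wild-type hearts (log2 fold change 1.15, SE 0.09, adjusted p = 3.35e-04, limma). Lama3, a laminin chain of epithelial basement membranes, stood at 144, 119 and 145 in deletion hearts, against 64.7, 58.7 and 59.5 in wild-type hearts (1.14, SE 0.16, adjusted p = 0.00703, limma). Bgn, the small matrix proteoglycan biglycan, fell to 326 ± 42.6 in deletion hearts, against 527 ± 49.6 in wild-type hearts (−0.69, adjusted p = 0.0171, limma; normalized counts, SD, n = 3 each). Bgn lost its call without deletion replicate 1 or 2 or wild-type replicate 3 (adjusted p of 0.0597 to 0.0951, limma).

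Of 9 genes listed as modulators of tolloid activity or of its surroundings, 0 rose and 3 fell (median −0.10). Olfml3, whose Xenopus relative holds chordin and a tolloid protease together, stood at 142, 142 and 132 normalized counts in deletion hearts, against 267, 243 and 250 in wild-type hearts (log2 fold change −0.86, SE 0.12, adjusted p = 0.00613, limma). Postn, the gene of periostin, a matrix protein that helps Bmp1 to act on lysyl oxidase, stood at 109, 117 and 227 in deletion hearts, against 259, 414 and 384 in wild-type hearts (−1.27, SE 0.28, adjusted p = 0.0412, limma). Deletion replicate 3 held about as much again as either other deletion library and came nearest to the wild-type range, without reaching it. The third was Nid1, a basement membrane linker, at 3598 ± 248 in deletion hearts and 5069 ± 156 in wild-type hearts (normalized counts, SD, n = 3 each; −0.50, adjusted p = 0.00630, limma). Postn lost its call without deletion replicate 1 or 2 or wild-type replicate 2 or 3 (adjusted p of 0.0565 to 0.172, limma). Of 7 genes of other processing proteases, 2 rose and 0 fell (median −0.11), both proprotein convertases of the furin type, which remove the prodomains of BMPs and of tolloid proteases. Pcsk5 stood at 757 ± 28.7 in deletion hearts and 575 ± 43.9 in wild-type hearts, and Pcsk6 at 848 ± 44.7 in deletion hearts and 670 ± 22.1 in wild-type hearts (normalized counts, SD, n = 3 each; log2 fold changes 0.40 and 0.34, adjusted p = 0.0384 and 0.0474, limma). Both calls ended without any 1 deletion library or wild-type replicate 3, that of Pcsk5 also without wild-type replicate 1 and that of Pcsk6 without wild-type replicate 2 (adjusted p of 0.0524 to 0.170 for Pcsk5 and 0.0563 to 0.169 for Pcsk6, limma), and both once that trend had been taken out (0.0689 and 0.122) or with sex as a term (0.0629 and 0.0713).

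The list of 8 cushion mesenchyme markers shares Col3a1, Postn and Msx1 with the pathway lists. Of the 8 markers 4 fell, these 3 and Twist1 (log2 fold change −1.14), while the groups overlapped for Sox9, Prrx1, Snai2 and Pdgfra. The 8 markers summed to 3779 to 5508 normalized counts in deletion hearts and 7021 to 9038 in wild-type hearts, of which Col3a1 alone made up 37.8% in deletion hearts and 53.3% in wild-type hearts. Without the 3 shared genes the other 5 summed to 1872 to 2927 in deletion hearts and 2253 to 3499 in wild-type hearts, with overlap. Epicardial markers, 8 of 8 measured, summed to 4591 to 6170 in deletion hearts and 2814 to 3781 in wild-type hearts. Of the 8, 1 was called, Krt19, which rose (median of the list 0.60). Tbx18 and Tcf21 were uncalled, with each deletion library above each wild-type library (log2 fold changes 0.72 and 0.88, adjusted p = 0.0738 and 0.0545, limma). For Wt1, Upk3b, Upk1b, Sema3d and Aldh1a2 the groups overlapped. Without Krt19 the epicardial sums overlapped, at 2238 to 3848 in deletion hearts and 1558 to 2494 in wild-type hearts. The part of either in the values of Col3a1, Bgn, Postn, Igfbp3 or Lama3 was not tested.

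**Figure D4:**
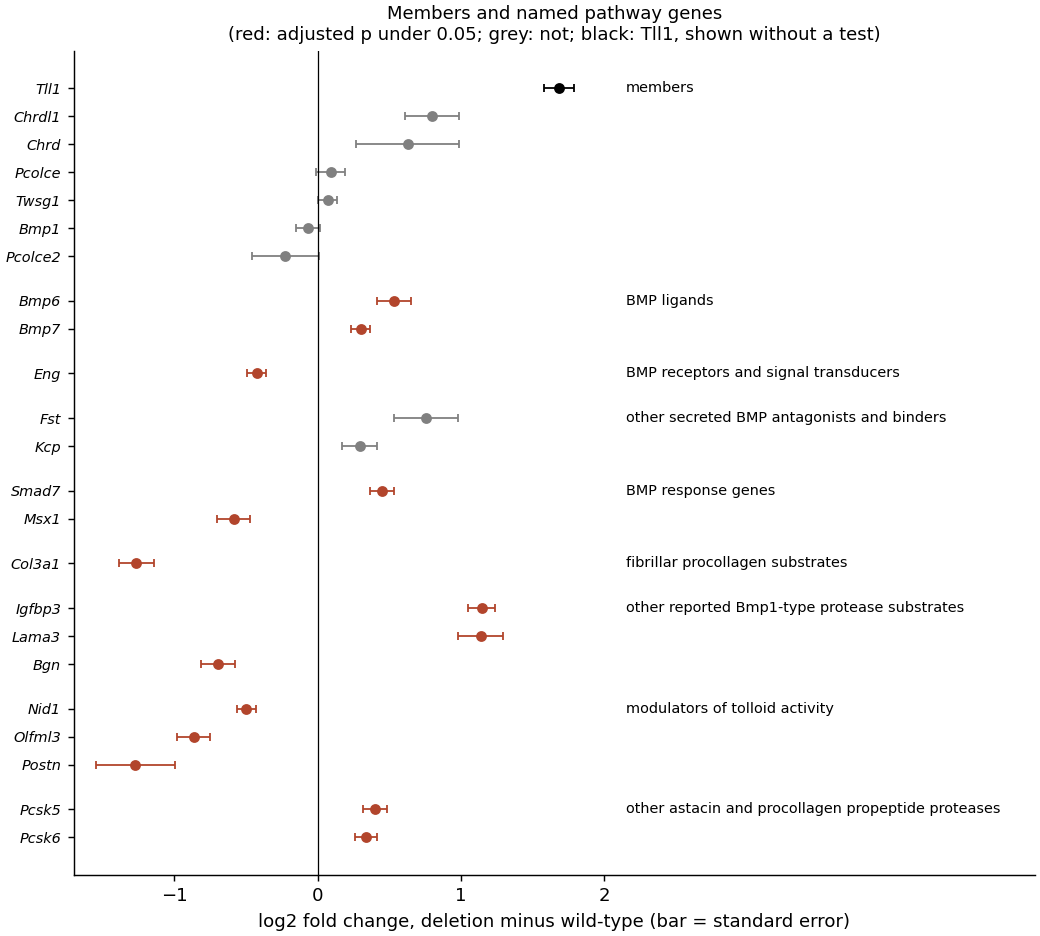
Log2 fold change, deletion minus wild-type, with its standard error, for the 7 measured members and the named genes of 8 pathway lists; red marks an adjusted p under 0.05 and black marks Tll1, shown without a test. Named genes lie on both sides of 0, from Postn (−1.27) to Igfbp3 (1.15), and Tll1 (1.68) lies beyond them.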

How the data were processed

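Stranded mRNA sequencing libraries started from 300 ng total RNA, with paired reads, per the labels' protocols. Builds GRCm39 and mm39 stand in the submitters' processing notes, beside STAR 2.7.9a, Subread 2.0.1 with featureCounts, DESeq2 1.30.1 and bcl2fastq 2.20. How strand was set, which annotation was counted and how genes were filtered is not given in the sources used here. What the authors deposited is a normalized count, a per-gene signal. In each of the 6 columns, 100% of values were whole multiples of 1 step within 0.01, so the reads behind them could be recovered.

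Groups were compared in R 4.3.3 by limma-trend, limma version 3.58.1, after log2(normalized count + 1). The minimum mean of 10 kept all 15330 rows. Two-sided p-values were adjusted over all genes after Benjamini and Hochberg. Fold changes on this scale understate changes of low genes. edgeR 4.0.16 and DESeq2 1.42.0 were run on recovered reads as alternatives, beside other pseudocounts, filters, scalings, the recorded file assignment, a sex term, blocking by replicate number, removal of a length and GC trend, and each library left out. Transcript lengths came from GENCODE M21 on GRCm38 and covered 98.1% of rows; neighbours came from RefSeq on GRCm38.p6. Genes with no row were not analysed here.

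The members and lists were chosen with earlier results of these data known. Named genes were all members, up to 4 called genes per list by smallest p (except 1 gene that falls under this rule, stays in the counts and is not reported here), or 2 where none was called, the 5 genes most like Tll1 and Bmp1 with a mean of at least 50, Hand2, and measured neighbours of Tll1. Marker genes given beside them were chosen after their values were seen.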

Additional observations from a re-analysis of the deposited data

How the results depend on the processing

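The Tll1 log2 fold change stayed between 1.64 and 1.76 over 19 alternatives that kept the groups. The 6 other members kept their direction in each of these that could give a value, and the minimum of 50 gave none for Chrd and Pcolce2. Other minimums, no intensity trend, a sex term and a replicate block cannot move a fold change in this balanced design. Tll1 stood at 1.68 in each of them, so they say nothing of its stability. Of 15 called pathway genes, 4 kept their call in all 19: Col3a1, Igfbp3, Lama3 and Olfml3. Calls over all genes numbered 467 in the main test, 146 without an intensity trend, 1123 in DESeq2, and 103 to 1161 with each library left out, the extremes without deletion replicate 2 and without wild-type replicate 2. Higher and lower calls were 237 and 230 in the main test, 393 and 209 after equal totals without haemoglobin, and 199 and 310 with the length and GC trend taken out. Members called numbered 2, with Chrdl1 added, after equal totals without haemoglobin and in DESeq2. Pathway genes called numbered 15 in the main test, 4 without an intensity trend and 5 to 18 with each library left out. The 4 called without an intensity trend were Col3a1, Igfbp3, Lama3 and Olfml3. Nid1 kept its call with each library left out and lost it without an intensity trend (adjusted p = 0.0544, limma). Per kilobase, the Tll1 share was 45.5% in deletion hearts and 19.8% in wild-type hearts. With sex as a term, 346 genes and 11 pathway genes were called. A replicate block gave 206 calls over all genes and 9 pathway genes, without Bmp7, Bmp6, Smad7, Pcsk5 and Pcsk6 among others. Same-numbered libraries were of the same sex. Their deviations from the group means had r of −0.035, −0.12 and −0.14, against −0.16 to 0.25 for the other pairs. So few libraries cannot show whether same-numbered libraries share anything else.

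The recorded file assignment, which exchanges 4 of 6 libraries, gave 0 calls over all genes (414 at an unadjusted p under 0.05, limma), 0 members, 0 pathway genes and 0 neighbours. It turned the log2 fold changes of Tll1 (−0.63), Bmp1 (0.046), Pcolce2 (0.24), Chrdl1 (−0.42), Bmp7 (−0.12), Bmp6 (−0.12), Eng (0.065), Fst (−0.22), Kcp (−0.070), Smad7 (−0.21), Msx1 (0.18), Col3a1 (0.64), Igfbp3 (−0.20), Lama3 (−0.29), Bgn (0.40), Olfml3 (0.25), Nid1 (0.24), Postn (0.77), Pcsk5 (−0.10), Pcsk6 (−0.047), Spock3 (0.077), Cpe (−0.27), Klhl2 (−0.13), Tmem192 (0.13), Apela (1.08) and Hand2 (0.57). Uncalled neighbours also changed sign: with each library left out, Klhl2 ranged from −0.024 to 0.17, Apela from −0.77 to 0.095 and Tmem192 from −0.11 to 0.055. The sign turned without wild-type replicate 1 for all 3 genes and, for Tmem192, also without deletion replicate 2. Tmem192 was at 0.012 after equal totals without haemoglobin and at 0.046 with the length and GC trend taken out. The cause of these moves was not tested.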
